A study of Mus musculus with 53 samples.

Results

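The regions described here are sites that carried a SOX2 peak in pluripotent cells and a GATA6 peak in extra-embryonic endoderm, but no GATA6 peak in the double-positive cells of KOSR culture. They were found by merging the GATA6 peaks of 5 libraries wherever they shared at least 1 bp, which gave 39910 regions. Of these, 15716 had a peak in both libraries of nEnd cells and in no library of double-positive cells, and are called nEnd-only regions below. Members are the 829 nEnd-only regions (5.27%) that also overlapped a SOX2 peak in at least 4 of the 7 pluripotent libraries. Their number depended on the lists, being 1510 without the nEnd GATA6 library of clone B9 and 22 with equal peak numbers. SOX2 in nEnd and GATA6 in 2iLIF, NACL or SOX2+ cells were not analysed here, so the members show where the peaks of both factors fall in different cells and not that one factor displaced the other.

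All libraries came from clones B9 and B12 of SGGC, a mouse embryonic stem cell (ESC) line made from E14JU that reports SOX2 through GFP and GATA6 through mCherry. CUT&RUN, in which an antibody directs a nuclease to a chromatin protein and the freed fragments are sequenced, was used for SOX2, GATA6 and the histone marks H3K27ac and H3K4me1. The pluripotent SOX2 libraries were 2 from 2iLIF and 2 from NACL, 1 of each clone, and 3 from SOX2+ cells, which were sorted from KOSR culture for the SOX2 reporter alone. The double-positive (DP) cells were sorted from the same culture for both reporters, and all KOSR libraries came from clone B12, in experiments A, A1 and B. The nEnd cells are naive extra-embryonic endoderm cells, with GATA6 and H3K27ac measured in both clones and H3K4me1 in 2 samples of clone B9. Nothing in the labels says that the libraries of a group came from separate cultures, so the tests measure only the spread between these libraries.

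SOX2 is an HMG-box factor that binds enhancers of pluripotent cells and of the epiblast, often beside OCT4. GATA6 is a zinc-finger factor that drives the primitive endoderm fate in the blastocyst and recognises GATA sequences. H3K27ac marks active enhancers and promoters, while H3K4me1 marks enhancers, whether active or not, and is low at active start sites.

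The sequences of 10 members are shown because they hold the arrangement of sites that the results return to. Each is the forward strand of the 200 bp around the GATA6 maximum, read from GRCm38 (RefSeq, GRCm38.p6). Capitals mark the GATA string GATAA and the SOX strings CATTGT and ACAAAG on either strand. The first 5 belong to members nearest to genes of pluripotency, endoderm or signalling and hold both kinds of string: Klf4 (chr4:55475651-55475850), Otx2 (chr14:48662953-48663152), Sparc (chr11:55430577-55430776), Il6st (chr13:112416424-112416623) and Tead1 (chr7:112788389-112788588).
Klf4: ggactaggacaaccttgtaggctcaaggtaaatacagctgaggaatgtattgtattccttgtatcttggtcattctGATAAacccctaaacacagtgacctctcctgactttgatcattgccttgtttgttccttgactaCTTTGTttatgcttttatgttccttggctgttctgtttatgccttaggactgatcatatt
Otx2: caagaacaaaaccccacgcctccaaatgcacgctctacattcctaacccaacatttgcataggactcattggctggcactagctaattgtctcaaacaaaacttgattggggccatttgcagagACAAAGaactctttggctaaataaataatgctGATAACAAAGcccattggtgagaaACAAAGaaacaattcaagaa
Sparc: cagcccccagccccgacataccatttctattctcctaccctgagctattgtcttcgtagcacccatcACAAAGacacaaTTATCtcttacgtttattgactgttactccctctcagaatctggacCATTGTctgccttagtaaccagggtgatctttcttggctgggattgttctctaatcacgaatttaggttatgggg
Il6st: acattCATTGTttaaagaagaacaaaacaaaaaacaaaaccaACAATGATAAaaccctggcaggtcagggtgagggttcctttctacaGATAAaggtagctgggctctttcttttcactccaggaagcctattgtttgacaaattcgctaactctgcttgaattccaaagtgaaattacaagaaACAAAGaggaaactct
Tead1: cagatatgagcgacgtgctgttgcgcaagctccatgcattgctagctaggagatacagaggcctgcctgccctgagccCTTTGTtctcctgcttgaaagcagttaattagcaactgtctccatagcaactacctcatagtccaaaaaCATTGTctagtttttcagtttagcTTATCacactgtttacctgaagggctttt

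In the Otx2 and Il6st windows a GATA string and a SOX string share bases. The next 2 stand for members with opposite H3K27ac, Ptgs1 (chr2:36198696-36198895), with H3K27ac in both nEnd libraries and no pluripotent one, and Crh (chr3:19707066-19707265), acetylated in 5 of 6 pluripotent libraries and in neither of nEnd.
Ptgs1: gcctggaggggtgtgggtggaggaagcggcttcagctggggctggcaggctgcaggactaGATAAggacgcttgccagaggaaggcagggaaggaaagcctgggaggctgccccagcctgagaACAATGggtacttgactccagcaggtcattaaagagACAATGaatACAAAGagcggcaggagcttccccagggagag
Crh: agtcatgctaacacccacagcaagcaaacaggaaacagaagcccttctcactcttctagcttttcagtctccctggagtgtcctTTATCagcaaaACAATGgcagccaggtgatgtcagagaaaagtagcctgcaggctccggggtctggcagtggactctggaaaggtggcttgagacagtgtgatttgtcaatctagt

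The last 3 have SOX strings but no GATAA in the window, and GATA6 peaked there in both nEnd libraries: Sall4 (chr2:168769294-168769493), Arid5b (chr10:68137473-68137672) and Lifr (chr15:7081922-7082121). The Sall4 window does hold GATAG and the Lifr window its reverse complement CTATC, a form of GATA sequence that was not counted.
Sall4: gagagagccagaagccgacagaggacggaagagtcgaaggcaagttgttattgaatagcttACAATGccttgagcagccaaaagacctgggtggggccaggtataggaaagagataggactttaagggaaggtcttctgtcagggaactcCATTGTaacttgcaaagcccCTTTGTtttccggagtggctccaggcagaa
Arid5b: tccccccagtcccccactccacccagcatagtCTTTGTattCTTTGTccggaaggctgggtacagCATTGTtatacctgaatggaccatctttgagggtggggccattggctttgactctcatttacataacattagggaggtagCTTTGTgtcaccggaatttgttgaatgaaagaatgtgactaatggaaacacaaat
Lifr: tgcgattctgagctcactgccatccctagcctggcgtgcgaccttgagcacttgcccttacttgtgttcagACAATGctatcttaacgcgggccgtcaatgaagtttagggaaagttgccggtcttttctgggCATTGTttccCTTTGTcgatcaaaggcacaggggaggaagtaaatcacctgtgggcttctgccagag

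The members were chosen by the presence of GATA6 peaks in nEnd, their absence in DP cells and the presence of SOX2 peaks in pluripotent cells, and these values are given first, as a description. Across the 15716 nEnd-only regions, 13606 had no pluripotent SOX2 peak, 631 had one in 1 library, 402 in 2 and 248 in 3. Of the members, 191 had a SOX2 peak in 4 libraries, 165 in 5, 124 in 6 and 349 in all 7. The plot of recurrence shows that the number fell from 1 to 6 libraries and rose again at 7. SOX2 peaks covered 96.0% and 88.9% of the members in NACL (B9 and B12), 92.0%, 93.0% and 76.2% in SOX2+ cells (experiments A, A1 and B) and 71.0% and 58.9% in 2iLIF (B9 and B12). The highest share came from the longest list, the 29623 peaks of NACL B9, and the lowest from the shortest, the 8203 of 2iLIF B12. DP lists of GATA6 held 8316, 3821 and 1391 peaks against 24223 and 32510 in nEnd, so a region without a DP peak can be one that a short list does not reach.

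**Figure D1:**
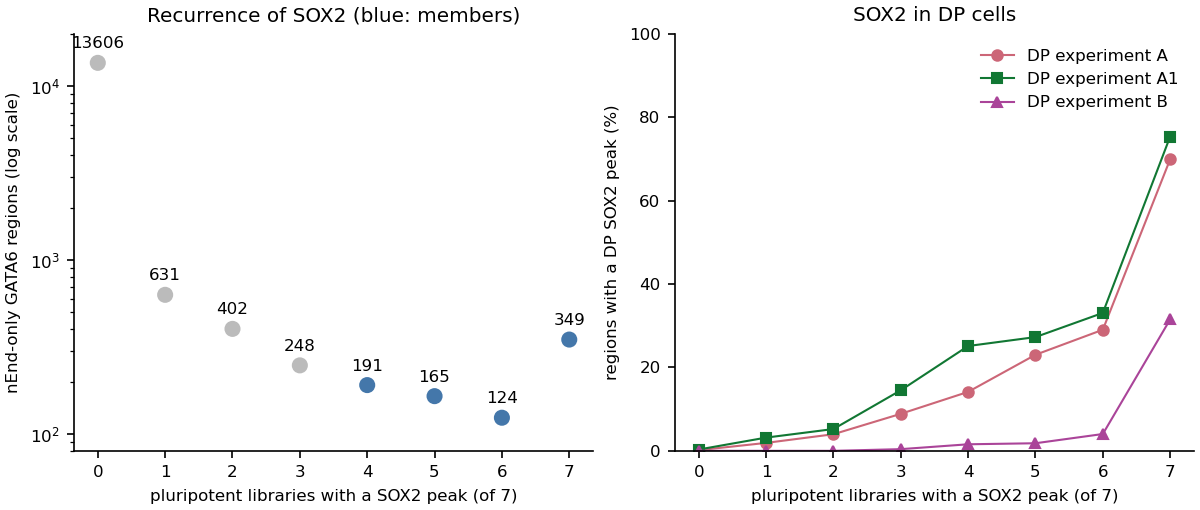
Left, the number of nEnd-only GATA6 regions (y axis, log scale) by the number of pluripotent libraries with a SOX2 peak (x axis), with members in blue. Right, the percentage of the same regions with a SOX2 peak in each of the 3 DP libraries, which rises from under 1% at 0 libraries to 69.9%, 75.4% and 31.5% at 7 libraries in experiments A, A1 and B.

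The strength of a peak was read as the percentile of its max signal among all peaks of its library, where 100 is the strongest. Members with SOX2 in 4 libraries had a median mean SOX2 percentile of 42.5, and those with SOX2 in 7 libraries one of 77.3. GATA6 did not follow this order. Its median percentile at members with SOX2 in 4, 5, 6 and 7 libraries was 46.0, 43.7, 41.4 and 41.4 in nEnd B9 and 57.6, 61.2, 57.6 and 57.6 in nEnd B12. Among all members the median was 43.7 in B9 and 57.6 in B12, against 53.8 and 61.2 at nEnd-only regions with no pluripotent SOX2. The 634 regions with GATA6 peaks in both nEnd and DP cells and the same SOX2 rule, called shared regions below, had stronger nEnd peaks, with medians of 69.3 and 85.4. Since GATA6 peaks chose both sets, these levels carry no test.

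Members were spread over the genome. They lay on all autosomes and chromosome X, from 77 on chromosome 1 to 14 on chromosome 16. Their median width was 565 bp (interquartile range 457 to 722), against 495 bp (400 to 623) for the other nEnd-only regions. The SOX2 maximum lay close to the GATA6 maximum. The median distance between them was 66.5 bp (interquartile range 25 to 151.5), and 534 members (64.4%) had the 2 maxima within 100 bp of each other. At shared regions the median distance was 56.8 bp, with 66.1% within 100 bp. At nEnd-only regions with SOX2 in 3 of 7 libraries it was 68.5 bp, with 61.7% within 100 bp. The closeness was therefore not particular to the members, and the overlap that the rule asks for favours it.

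Most members were distal. The GATA6 maximum lay a median of 16225 bp from the nearest protein-coding transcription start site, and 212 members (25.6%) were more than 50 kb away. These values were near those of all nEnd-only regions, with a median of 18176.5 bp and 25.5% beyond 50 kb. A set of 166 members (20.02%) lay within 1 kb of such a start site, against 10% of all nEnd-only regions and 7.58% of those with no pluripotent SOX2. Regions with SOX2 in 1, 2 or 3 pluripotent libraries, outside the rule, lay within 1 kb still more often, at 31.5%, 30.1% and 24.6%. By annotation, 466 maxima were intergenic, 334 intronic, 27 in untranslated exons and 2 in coding exons. In the other nEnd-only regions introns were the larger class (50.02% against 46.9% intergenic), while in the members intergenic positions were (56.2% against 40.3% intronic). This was not particular to the members, since intergenic positions were also the larger class at nEnd-only regions with SOX2 in 3 of 7 libraries (58.1% against 39.1%) and at shared regions (60.6% against 37.1%).

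To ask whether SOX2 was still found at these sites in DP cells, where both reporters are on, the SOX2 peaks of DP cells were overlapped with the members. The rule did not use these libraries, but it did use SOX2 peaks of SOX2+ cells from the same culture and experiments. A DP SOX2 peak was present at 345 members in experiment A (41.6%, 95% Clopper-Pearson interval 38.2 to 45.1), at 397 in A1 (47.9%, 44.4 to 51.4) and at 121 in B (14.6%, 12.3 to 17.2). Experiment B stood below the others, and its list was also the shortest, with 1378 peaks against 4859 in A and 5320 in A1. In all, 455 members (54.9%) had a DP SOX2 peak in at least 1 library, against 3.9% of all nEnd-only regions, and 117 (14.1%) had one in all 3, against 0.751%. At nEnd-only regions with no pluripotent SOX2 the shares were 0.162%, 0.316% and 0.00735% in A, A1 and B. The difference averaged 34.5 percentage points ± 17.5 (SD, n = 3 libraries) and had the same sign in 3 of 3 libraries. Both sets were chosen by SOX2 in pluripotent cells, so this sign was to be expected and the difference is a description. An exact sign-flip permutation test gave p = 0.25 (two-sided), the smallest value that 3 libraries allow, and 0.312 after Benjamini-Hochberg adjustment over 10 tests. The intervals cover counting error over regions only.

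Recurrence in pluripotent cells went with SOX2 in DP cells. The share with a DP SOX2 peak in at least 1 library was 28.8% at 4 libraries, 35.2% at 5, 44.4% at 6 and 82.2% at 7. At nEnd-only regions with SOX2 in 3 libraries, just outside the rule, it was 19%. Members with a DP SOX2 peak had a median pluripotent SOX2 percentile of 69.6 and the other 374 one of 48.3, whereas the GATA6 medians were 38.9 and 46.0 in B9 and 57.6 and 58.5 in B12.

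**Figure D2:**
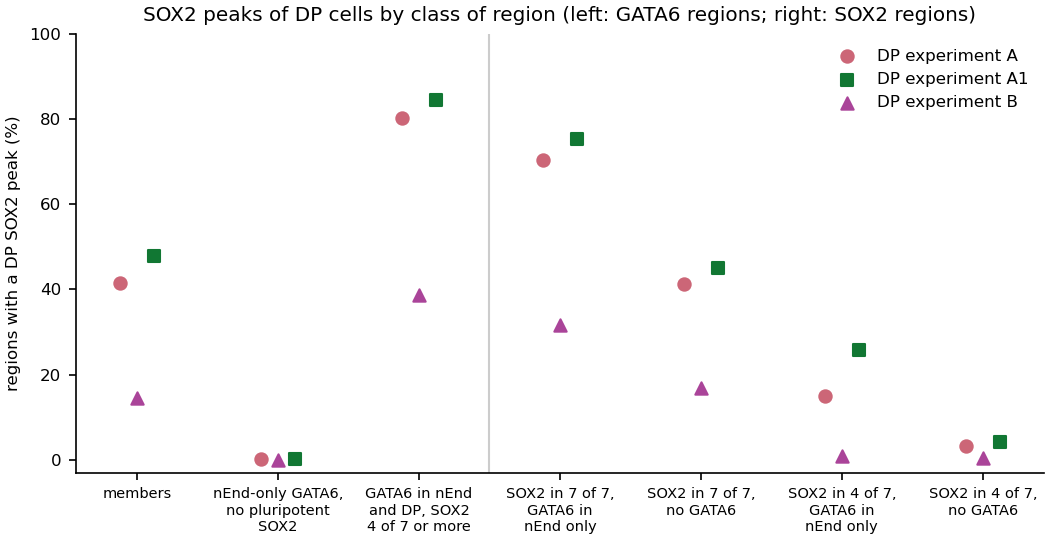
Percentage of regions with a SOX2 peak in each DP library (y axis), 1 point per library, by class of region (x axis). To the left of the line are merged GATA6 regions and to the right merged SOX2 regions with peaks in at least 4 of 7 pluripotent libraries, where those with GATA6 in nEnd only lie above those with no GATA6 in every library.

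To compare SOX2 sites with and without GATA6, the same minimum of 4 libraries was applied to merged pluripotent SOX2 regions. Of 12801 SOX2 regions with peaks in at least 4 of 7 libraries, 846 had GATA6 in nEnd only, 621 had it in nEnd and DP cells and 9881 had no GATA6 peak in any library. DP SOX2 peaks lay at 42.0%, 47.6% and 14.4% of the first class in A, A1 and B and at 18.9%, 21.1% and 6.51% of the class with no GATA6. The difference was 19.2 percentage points ± 9.91 (SD, n = 3 libraries), positive in 3 of 3, with p = 0.25 by the exact sign-flip permutation test and 0.312 adjusted. Recurrence was not equal in the classes, since 42.3% of the regions with GATA6 in nEnd only and 35.8% of those with no GATA6 had SOX2 in all 7 libraries. With the class without GATA6 weighted to the recurrence of the other, a comparison chosen after seeing the data, the difference was 17.2 points. With SOX2 in all 7 libraries, the shares were 70.4%, 75.4% and 31.6% with nEnd GATA6 and 41.3%, 45.1% and 17% without. With SOX2 in exactly 4, they were 14.9%, 25.8% and 1.03% against 3.35%, 4.27% and 0.385%. The median of the highest SOX2 percentile was 83.5 with nEnd GATA6 and 82.0 without, and 19.6% and 3.95% of the regions lay within 1 kb of a start site. The difference was 19.1 points among regions farther than 1 kb. SOX2 regions with GATA6 in both nEnd and DP cells had a DP SOX2 peak more often still, at 81.6%, 85.2% and 39.6%. With each DP SOX2 list held to its 1378 peaks of highest total signal, the difference from regions with no GATA6 was 8.41 points. That from nEnd-only regions with no pluripotent SOX2 was 13.7 points.

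H3K27ac was then compared to ask in which cells the members carried an active mark. In 2iLIF, 85.0% (B9) and 87.7% (B12) of members overlapped an H3K27ac peak. In NACL the shares were 87.6% and 92.3%, and in nEnd 84.4% and 83.6%. They were lower in SOX2+ cells, at 32.1% in experiment A and 31.6% in B, and 62.7% in the DP library. Peak numbers differed in step for the KOSR libraries, with 13514 and 14722 in SOX2+ and 76260 in DP, against 210904 to 401853 in 2iLIF and NACL. The nEnd lists held only 21394 and 20072 peaks, which were wide (medians of 4386 and 5453 bp). The share in nEnd averaged 84.0% ± 0.597 (SD, n = 2) and that in the 6 pluripotent libraries 69.4% ± 29.2 (SD, n = 6). The difference of 14.6 points did not exceed the spread (exact permutation test over 28 splits, two-sided, p = 1, smallest possible 0.0714). Its sign depended on the pluripotent libraries used, being 52.2 points against SOX2+ cells and -4.13 points against 2iLIF and NACL. With each list held to its 13514 peaks of highest total signal, nEnd had 71.9% and 74.3% and the pluripotent libraries 30.6% to 51.7%. The difference was 31.6 points (exact permutation test, p = 0.0714). Total signal grows with the width of a peak, and the nEnd peaks were the widest.

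Within each library, members carried H3K27ac more often than the other nEnd-only regions. The difference was positive in 9 of 9 libraries and averaged 30.7 percentage points ± 9.38 (SD, n = 9), from 17.6 in nEnd B9 to 41.7 in NACL B9 (exact sign-flip permutation test, two-sided, p = 0.00391, adjusted p = 0.0391). In nEnd the other regions were themselves acetylated at 66.8% and 64.3%. In 2iLIF they were acetylated at 46.1% and 56.8%, in NACL at 45.9% and 55.5% and in SOX2+ cells at 6.94% and 6.78%. The excess of members was 18.5 points in nEnd and 33.0 points in pluripotent cells, and the difference of -14.6 points between the 2 was at the smallest p that 2 against 6 libraries allow (exact permutation test, two-sided, p = 0.0714, adjusted p = 0.119), a comparison chosen after seeing the data. Just outside the rule, at regions with SOX2 in 3 of 7 libraries, H3K27ac covered 81.5% and 84.7% in 2iLIF and 78.6% and 79.8% in nEnd. Just inside it, with SOX2 in 4, it covered 79.6% and 81.2% in 2iLIF and 88.0% in each nEnd library.

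**Figure D3:**
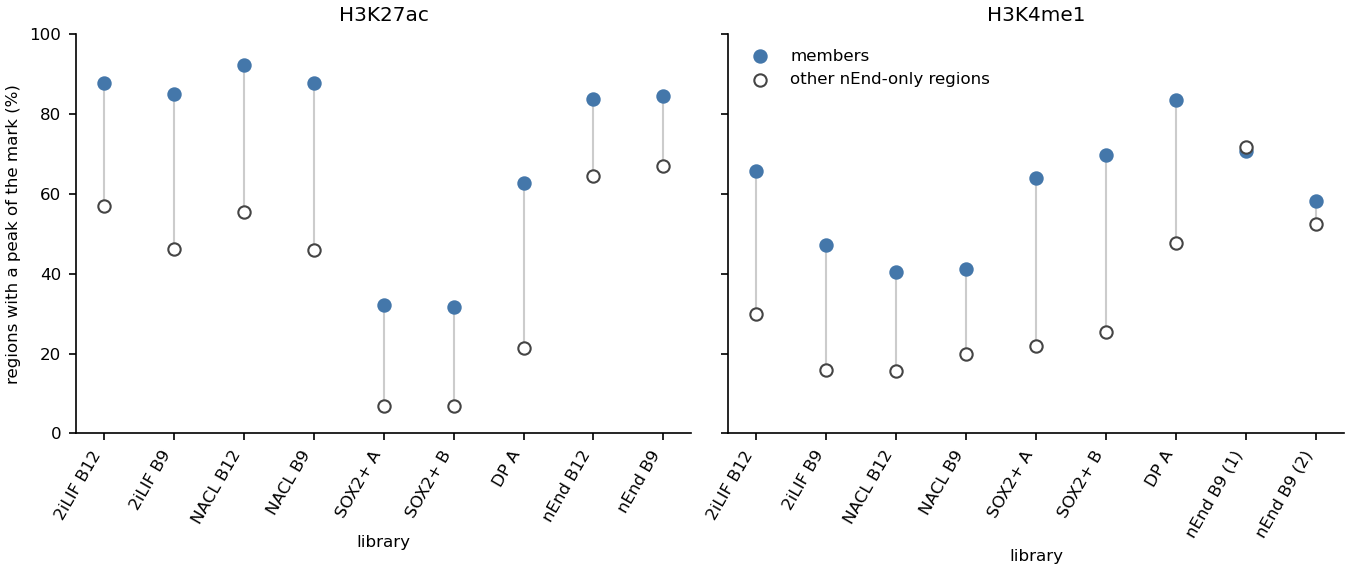
Percentage of members (filled) and of the other nEnd-only GATA6 regions (open) that overlap a peak of H3K27ac (left) or H3K4me1 (right) in each library (x axis, with clone or experiment). Members lie above the other regions in every H3K27ac library and in every H3K4me1 library but one of nEnd.

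With the full peak lists, most members had H3K27ac in both states of the clones. Those lists held 210904 to 401853 peaks in 2iLIF and NACL, against 21394 and 20072 in nEnd. The classes below were not counted with lists of equal length. A total of 522 members (63.0%) had H3K27ac in all 4 libraries of 2iLIF and NACL and in both of nEnd, against 26.6% of all nEnd-only regions. Only 44 (5.31%) had it in those 4 libraries and neither of nEnd, against 2.72%, and 13 (1.57%) had it in both of nEnd and none of those 4, against 8.53%. A further 8 members had it in none of the 6, 0.965% against 10.6%, and 242 were mixed between libraries of a state, 29.2% against 51.6%. A DP SOX2 peak in at least 1 library was found at 57.5% of the members acetylated in both states, at 63.6% of those acetylated in 2iLIF and NACL but not nEnd, at 46.2% of those with the reverse, at 62.5% of those in none of the 6 and at 47.9% of the mixed ones. Over all nEnd-only regions the shares of the same 5 classes were 8.99%, 7.73%, 0.820%, 0.784% and 2.22%.

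H3K4me1 gave another pattern. It covered 47.0% (B9) and 65.6% (B12) of members in 2iLIF, 41.3% and 40.3% in NACL, 63.8% and 69.6% in SOX2+ cells (A and B), 83.5% in DP cells and 70.7% and 58.3% in the 2 nEnd libraries. One nEnd value lay within the pluripotent range of 40.3% to 69.6% and the other just above it, and the difference of 9.87 points did not exceed the spread (exact permutation test, p = 0.5, adjusted p = 0.556). Within clone B9, the clone of both nEnd libraries, the nEnd values lay above the 47.0% of 2iLIF and the 41.3% of NACL by a mean of 20.3 points (exact permutation test, p = 0.333, the smallest that 2 against 2 libraries allow), a comparison chosen after seeing the data. Against SOX2+ cells alone the difference was -2.23 points, and without the nEnd library of 42816 peaks it was 3.66 points against the 6 pluripotent libraries. Within libraries the members exceeded the other nEnd-only regions by 26.6 points ± 15.6 (SD, n = 9), with 8 of 9 libraries positive (exact sign-flip permutation test, p = 0.00781, adjusted p = 0.0391). The call was lost (adjusted p = 0.0781, exact sign-flip permutation test) when any 1 library other than the nEnd library of 42816 peaks was left out, with differences of 24.4 to 29.2 points. The exception was an nEnd library, in which 70.7% of members and 71.6% of the other regions carried the mark. In the other nEnd library the values were 58.3% and 52.5%. The excess averaged 2.41 points in nEnd and 33.2 points in the 6 pluripotent libraries (difference -30.8 points, exact permutation test, p = 0.0714, adjusted p = 0.119), also compared after seeing the data. Similar levels were found just outside the rule. At nEnd-only regions with SOX2 in 3 of 7 libraries, H3K4me1 covered 37.1% and 59.3% in 2iLIF, 38.3% and 31.0% in NACL, 60.1% and 66.1% in SOX2+ cells, 83.9% in DP cells and 68.1% and 57.3% in nEnd. H3K4me1 was in all 4 libraries of 2iLIF and NACL and both of nEnd at 202 members (24.4%, against 8.6% of nEnd-only regions), in both of nEnd and none of the 4 at 54 (6.51%, against 24.8%), in those 4 and neither of nEnd at 6 (0.724%, against 0.331%) and in none of these 6 at 161 (19.4%, against 23%). The largest class was mixed, with 406 members (49.0%, against 43.3%).

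H3K4me1 was lowest at members near start sites. Among the 166 within 1 kb of a start site, H3K4me1 covered 13.9% and 25.3% in 2iLIF, 12.7% in each NACL library, and 30.7% and 16.3% in nEnd, while H3K27ac covered between 91.6% and 95.2% of them in the 6 libraries of 2iLIF, NACL and nEnd. In SOX2+ cells (A and B) the same 166 had H3K4me1 at 41.6% and 47.0% and H3K27ac at 47.0% and 46.4%. Among the 663 distal members, H3K4me1 covered 55.4% and 75.7% in 2iLIF, 48.4% and 47.2% in NACL, whereas nEnd had 80.7% and 68.8% and SOX2+ cells 69.4% and 75.3%. In DP cells the same split was small, with 78.3% at start sites and 84.8% elsewhere. The DP list was also the longest for this mark, at 130749 peaks against 18627 to 78354 in the other libraries with a group. When distal members were compared with distal nEnd-only regions, all 9 libraries were positive, nEnd included (5.93 and 13.3 points), and the mean excess was 33.6 points (exact sign-flip permutation test, p = 0.00391).

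**Figure D4:**
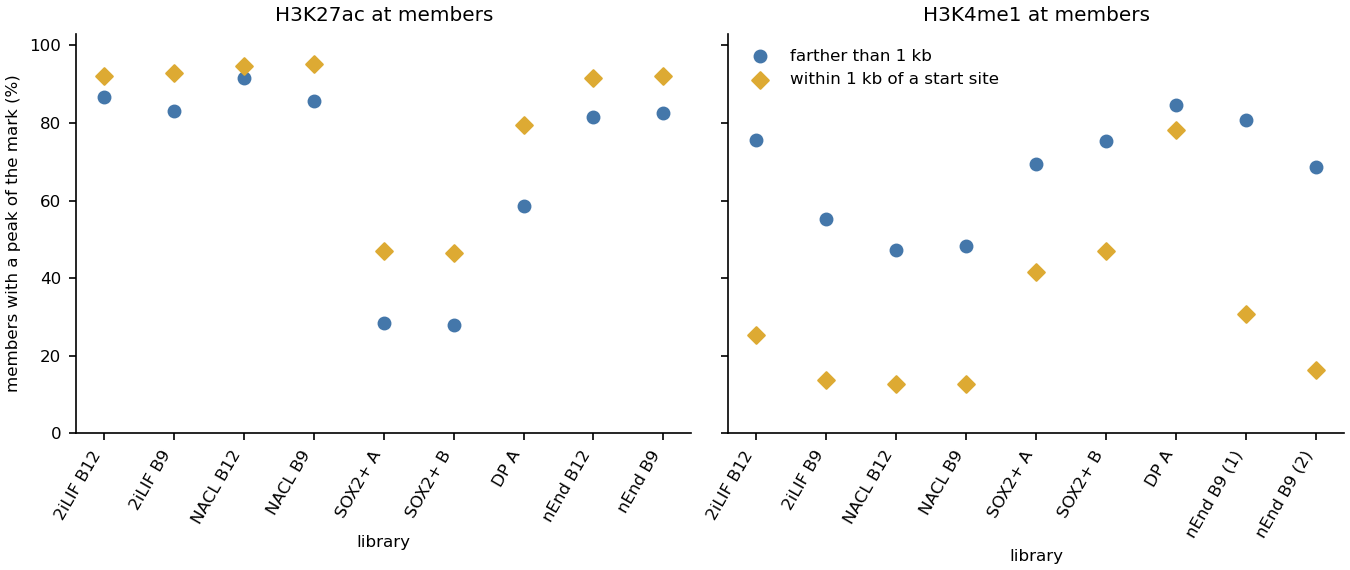
Percentage of members with H3K27ac (left) or H3K4me1 (right) in each library (x axis), for the 663 members farther than 1 kb from a protein-coding start site (circles) and the 166 within 1 kb (diamonds). At start sites H3K27ac lies higher in all libraries and H3K4me1 lower in all, least so in DP cells.

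The strings printed in capitals above were counted in the 200 bp around the GATA6 maximum of all regions. The GATA string GATAA was found at 440 members (53.1%, 95% interval 49.6 to 56.5) and 78.1% of all nEnd-only regions, and at 81.8% of those with no pluripotent SOX2. Its longer form AGATAA, which is contained in the count of GATAA, was at 32.2% of members and 55.4% of nEnd-only regions. The SOX string CATTGT was at 38.2% of members against 27.5%, and ACAAAG at 39.7% against 29.2%. The octamer ATGCAAAT, the sequence of OCT4, was at 31 members (3.74%) against 1.46%. The KLF string CCACACCC (4.34% against 3.68%) and the ESRRB string TCAAGGTCA (0.362% against 0.356%) were near the background. The strings can overlap each other, and a match does not show that a factor was bound to it. A region without GATAA can hold another form of GATA sequence, such as GATAG, which was not counted.

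The lower share of GATAA was not particular to the members. At nEnd-only regions with SOX2 in 1, 2 and 3 pluripotent libraries, outside the rule, it was at 57.7%, 52.7% and 53.6%. Among distal members GATAA was at 57.9%, against 83.2% of distal regions with no pluripotent SOX2, and among members within 1 kb at 33.7% against 64.0%. At shared regions, which have the same SOX2 rule, GATAA was at 76.0%. The plot of string positions shows that GATA strings of members peaked at the GATA6 maximum, where 15.3% held one in the 25 bp before it and 12.4% in the 25 bp after, against 3.14% and 2.77% at the 2 ends of the 500 bp. At nEnd-only regions with no pluripotent SOX2 the 2 central bins held 26.5% and 26.4%. At the SOX2 maximum of the same members there was no such peak, with 4.83% and 6.39% in the central bins, whereas SOX strings stood at 28.2% and 26.8% there and at 13.6% and 14.1% at the GATA6 maximum.

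**Figure D5:**
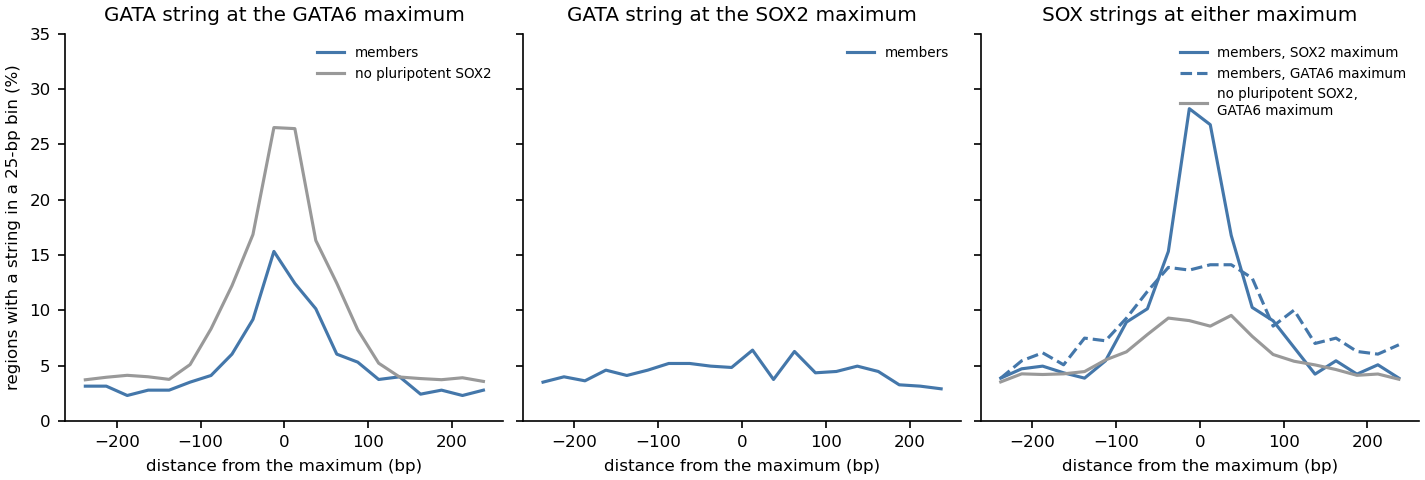
Percentage of regions with a string in each 25-bp bin (y axis) by distance from a maximum (x axis), for GATA strings at the GATA6 maximum (left), GATA strings at the SOX2 maximum (middle) and SOX strings at either maximum (right). In members (blue) GATA strings gather at the GATA6 maximum, less than at nEnd-only regions with no pluripotent SOX2 (grey), and SOX strings gather at the SOX2 maximum.

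Both kinds of string were present at 295 members (35.6%), the GATA string alone at 145 (17.5%), a SOX string alone at 236 (28.5%) and neither at 153 (18.5%). The corresponding shares at regions with no pluripotent SOX2 were 39.2%, 42.5%, 8.64% and 9.58%. Members without GATAA had weaker GATA6 peaks, with median percentiles of 30.9 in B9 and 51.0 in B12 against 52.1 and 64.3 with it. They were acetylated in nEnd at 86.9% and 86.1%, against 82.3% and 81.4%, and 28.3% lay within 1 kb of a start site against 12.7%. These splits were not particular to the members. At regions with no pluripotent SOX2, those without GATAA had GATA6 medians of 38.9 and 48.5, against 56.96 and 64.3 with it. Acetylation in nEnd was 77.7% and 75.4% against 62.7% and 59.98% there, and 14.96% against 5.93% lay within 1 kb. Shared regions had the same directions, with acetylation of 79.6% and 87.5% against 75.5% and 84.9%. A DP SOX2 peak in at least 1 library was found at 58.1% of members without GATAA and 52.0% of those with it. The order was the reverse at shared regions (87.5% and 90.7%) and at regions with no pluripotent SOX2 (0.202% and 0.44%). GATA and SOX strings that shared bases, as in the Otx2 and Il6st windows, were at 13 members (1.57%), against 1.45% of all nEnd-only regions.

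The genes nearest to members were read from protein-coding start sites of the GENCODE M21 annotation, and a nearest gene is a position and not a shown target. The 829 members lay nearest to 764 genes, which is 3.5% of 21829. Of 40 genes of pluripotency, 8 were nearest to a member, of 45 genes of extra-embryonic endoderm also 8, of 50 signalling genes 7, and of 28 annotated genes of other cell types none. The same lists were nearest to any nEnd-only region at 23, 36, 35 and 5 genes, against 31.2% of all genes, so most of their overlap with GATA6 in nEnd lay outside the members. The lists were drawn up with earlier results of these data known.

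Pluripotency genes were next to 9 members. Klf4 and Klf2, Krüppel-like factors of the naive state, had members 56019 bp and 17416 bp away. The Klf4 member had SOX2 in 7 of 7 pluripotent libraries and in 3 of 3 DP libraries, GATA6 percentiles of 67.2 (B9) and 80.7 (B12), and H3K27ac in all 9 libraries with a group. The Klf2 member had SOX2 in 5 of 7 and in 1 DP library, with GATA6 at 41.4 and 51.0. Sall4, a zinc-finger factor of pluripotent cells, had 2 members, 2193 bp and 23877 bp upstream of a start site. Both had SOX2 in 7 of 7 and in 3 of 3 DP libraries and H3K27ac in both nEnd libraries, with GATA6 at 52.1 and 57.6 in the nearer and 5.94 and 28.4 in the farther. The members of Spp1 (osteopontin) and Manba (a lysosomal mannosidase), genes entered in the pluripotency list, also had SOX2 in 7 of 7 and H3K27ac in both nEnd libraries. The Spp1 member was 75.7% soft-masked as repeat in the reference.

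Tbx3, Otx2 and Etv5 had members at their start sites, 73, 181 and 117 bp upstream. Tbx3 encodes a T-box factor, and its member kept H3K27ac in both nEnd libraries. Otx2, a homeobox factor of the epiblast as it leaves the naive state, and Etv5, an ETS factor downstream of FGF signalling, were the pair of pluripotency genes whose members had no H3K27ac in nEnd. The Etv5 member had H3K27ac in 2 of 2 libraries of 2iLIF, NACL and SOX2+ and in DP cells. The Otx2 member had it in 1 of 2 libraries of 2iLIF, in both of NACL and in none of the KOSR populations.

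Endoderm genes were next to 9 members, and all 9 had H3K27ac in both nEnd libraries, against 654 of 829 members (78.9%). They code largely for basement membrane and endocytosis. The member of Sparc, a matrix glycoprotein, had GATA6 percentiles of 96.4 and 96.9 and that of Lama1, a laminin chain, 96.7 and 95.5, so both were among the 10 members with the strongest GATA6. Lamc1, another laminin chain, had a member 21942 bp upstream with percentiles of 71.3 and 81.3. Nid2, which links laminin to collagen, had 2 members with mean percentiles of 67.7 and 87.9, and the Hspg2 (perlecan) member one of 42.8. The member of Dab2, an endocytic adaptor, stood at 78.8 and that of Lrp2, the receptor megalin, at 4.18. The mean GATA6 percentile of the 9 had a median of 76.3, against 48.3 for all members and 42.2 for the 9 members of pluripotency genes. SOX2 ranked the other way, with median mean percentiles of 50.3, 58.4 and 83.1. These are descriptions of small lists and carry no test. The member of Cited1, a transcriptional co-activator, had a mean GATA6 percentile of 67.3.

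Signalling genes were next to 12 members, all farther than 1 kb from a start site. Il6st (gp130) and Lifr, which together form the receptor for LIF, each had a member with SOX2 in 7 of 7 and in 3 of 3 DP libraries. The Il6st member lay 47546 bp upstream, with GATA6 at 75.3 and 85.4 and H3K27ac in all 9 libraries. The Lifr member lay 8592 bp upstream, with GATA6 at 73.7 and 86.3 and H3K27ac in 2iLIF, NACL and nEnd but in neither SOX2+ nor DP cells. Tead1, a factor of the Hippo pathway, had 3 members in introns, 28953 to 82699 bp from a start site. Tcf7l2, a factor of the Wnt pathway, also had 3, of which 2 were intergenic and 1 intronic, 27245 to 46504 bp away. All 6 had H3K27ac in both nEnd libraries, as had 78.9% of all members. Their SOX2 in DP cells ranged from 0 libraries at one Tead1 and one Tcf7l2 member to 3 at another Tead1 member. The member of Ccn1, a matrix protein induced by Hippo effectors, had SOX2 in 3 of 3 DP libraries. The member of Lrp6, a Wnt co-receptor, and the 2 of Smad7, an inhibitor of TGF-β signalling, had it in none.

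The 10 members with the strongest GATA6 lay nearest to Atf3, Mybph, Lrr1, P2rx4, Dcn, Incenp, Tor3a, Sparc, Ntn4 and Lama1. Their mean percentiles ran from 99.3 at Atf3, a stress-induced bZIP factor, to 96.1 at Lama1. All 10 had H3K27ac in both nEnd libraries, as had 78.9% of all members, and none had it in SOX2+ cells, where 62.5% of all members had none. Mybph (SOX2 in 3 of 3 DP libraries) was the one of them with SOX2 in all DP libraries, while 4 had none, those of P2rx4, Dcn, Lrr1 and Ntn4. Of all members, 14.1% had SOX2 in all DP libraries and 45.1% in none. Over all members the mean GATA6 percentile ran from 2.47 to 99.3, with 38 members above 90 and 39 below 10.

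The strongest DP SOX2 among the 117 members found in all 3 DP libraries lay nearest to Tex14 (3 members), Bcas2, Sema3d, Cd83, Sept1, Arid5b, Lax1 and Il6st. Their mean DP SOX2 percentiles ran from 99.7 at a Tex14 member to 96.1 at Il6st. GATA6 was weak at the 3 Tex14 members, with mean percentiles of 15.6, 12.2 and 16.3, and strong at Bcas2 (80.6). Members also gathered at other genes, chosen here after their values were seen. Arid5b, a chromatin regulator, had 5 members between 231 and 66263 bp from a start site, all with H3K27ac in both nEnd libraries, which 78.9% of all members had, and Tex14 had 4 in all, each with SOX2 in 7 of 7 and in 3 of 3 DP libraries. Akap2, Dst, Etl4, Foxo1 and Myof had 3 each.

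The next 10 were ranked by H3K27ac in both nEnd libraries and in none of the 6 pluripotent ones, with ties broken by GATA6, and lay nearest to Foxo1, Ptgs1, Rev1, Limch1, Galntl6, Med13l, Smg8, Mrps18a, Apba1 and Ppp1r16b. None had H3K27ac in DP cells, where 37.3% of all members had none, but they were chosen for its absence from the pluripotent libraries. Among other nEnd-only regions with H3K27ac in both nEnd libraries and in neither 2iLIF nor NACL, 3.01% had it in DP cells. Ptgs1 (cyclooxygenase 1) was the strongest of them for GATA6, at 55.4 and 62.9, and had SOX2 in 3 of 3 DP libraries. The reverse ranking, with H3K27ac in the most pluripotent libraries and none of nEnd, gave Etv5, Crh, Gm438, Ppp1r9a, Asns, Pygo1, Hebp2, Edn1, Mctp1 and Prps2. The member of Edn1, which encodes endothelin 1, lay 30 bp from a start site and still had strong GATA6, at 87.6 and 91.5. At this member H3K27ac was in 4 of 4 libraries of 2iLIF and NACL and in none of SOX2+, DP or nEnd.

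Repeats were more common in members than in the background. A total of 85 members (10.3%) were over 50% soft-masked in the reference, against 4.1% of nEnd-only regions and 19.1% of shared regions. These 85 had H3K27ac in nEnd at 65.9% and 70.6%, against 86.6% and 85.1% for the others, GATAA at 38.8% against 54.7%, and a DP SOX2 peak in at least 1 library at 78.8% against 52.2%. Whether reads of repeats were assigned correctly was not tested. Without them the DP SOX2 difference from regions with no pluripotent SOX2 was 32.1 percentage points.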

How the data were processed

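Peaks were read from CUT&RUN lists of 35 libraries, of which 33 had a group in their labels. Reads were trimmed by the authors (cutadapt 1.18), then aligned to mm10 (GRCm38) with Bowtie2 2.3.4.1, handled with SAMtools 1.9, Picard 2.9.1, bedtools 2.27.1 and deepTools 3.2.0 (versions from the submitters' processing notes) and turned into 1 peak list a library by SEACR with IgG as control. The deposited signal is whole-number coverage with a scale that differs by library. It served only to rank the peaks of a library, by max signal for percentiles and by total signal where lists were shortened. Read depth is unknown. Histone lists are named relaxed and factor lists stringent, whereas the methods give the opposite. IgG samples were not used here. The source name of the NACL B12 SOX2 library names IgG, and its medium was taken from the title and its antibody from the characteristics. What sub02 means in the label of DP GATA6 experiment A was not stated.

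Overlap meant at least 1 bp unless stated. Members and gene lists were chosen with earlier results of these data known. Start sites came from GENCODE M21 and sequence from RefSeq GRCm38.p6. Shares were compared over libraries with exact sign-flip or exact permutation tests, two-sided, adjusted by Benjamini-Hochberg over 10 tests with a threshold of 0.05. Regions were not treated as replicates. Clones B9 and B12 pair the H3K27ac libraries of 2iLIF, NACL and nEnd by their labels. Genes named were those of the lists nearest to a member, those nearest to the 10 members with the strongest GATA6, those of up to 10 members with the strongest DP SOX2 among those in all 3 DP libraries, and those of the 10 members most acetylated in nEnd against pluripotent libraries and of the 10 with the reverse. Alternatives covered the SOX2 minimum, overlap, peak strength and number, windows, distance from start sites, soft-masking and each library left out. Scripts used Python 3.11.15, NumPy 2.4.6, pandas 2.3.3, SciPy 1.17.1 and matplotlib 3.10.9, and were tested on simulated peaks.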

Additional observations from a re-analysis of the deposited data

Results flagged for a closer look

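An H3K4me1 and an H3K27ac library of KOSR culture, experiment B, carry labels that name different sorted populations and entered no comparison. The H3K4me1 library (94492 peaks) had a peak at 607 members (73.2%), against 34.4% of the other nEnd-only GATA6 regions. The H3K27ac library (19185 peaks) had a peak at 280 members (33.8%), against 9.46%. Both stand here because they are signal in data outside the comparisons, and no control library was used beside them. No group held enough libraries for a test of single outlying values.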

How the results depend on the processing

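The number of members depended on the rule and on list length. It was 2110 with SOX2 in at least 1 of 7 libraries and 349 with all 7. With lists shortened by total signal it was 273 for the stronger 50% of each list and 22 for equal peak numbers (1391 for GATA6 and 8203 for SOX2). Leaving out 1 library gave 667 to 1510, the highest without the nEnd GATA6 library of clone B9. The 3 other settings gave 796 to 846.

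With all 3 DP libraries, the DP SOX2 differences kept their sign in every setting run, from 13.7 to 61.6 points against regions with no pluripotent SOX2 and from 8.41 to 24.6 points against SOX2 regions with no GATA6, with p = 0.25 by exact permutation. The 61.6 points rest on 101 members, from SOX2 lists held to 1378 peaks. Leaving out 1 DP library gave 28 to 44.5 and 15.5 to 24.8 points, with the same sign and p = 0.5 by exact permutation. The setting with SOX2 in all 7 libraries could not be applied to regions with no SOX2.

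For H3K27ac at members, nEnd minus pluripotent libraries reversed to -4.13 points with 2iLIF and NACL only. Both nEnd libraries lay below every library of 2iLIF and NACL (exact permutation p = 0.133, the smallest that these libraries allow). With the clones as a replicate block the difference was also -4.13 points, being -1.87 in B9 and -6.39 in B12 (exact permutation p = 0.5, also the smallest possible). Other settings gave 2.63 to 52.2 points. Leaving out 1 library gave 7.08 to 19.2, the lowest values (7.18 and 7.08) without SOX2+ experiment A or B. For H3K4me1 the difference reversed to -2.23 points against SOX2+ only and lay between 9.69 and 17.5 in the other settings with all clones. Leaving out 1 library gave 3.66, without the nEnd library of 42816 peaks, to 16.1, without that of 18627. The cause was not tested. For H3K4me1, where both nEnd libraries came from clone B9, the replicate block left clone B9 against 2iLIF and NACL, at 20.3 points (exact permutation p = 0.333).

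With all 9 libraries, the differences between members and other regions stayed past the threshold, at 26 to 33.0 points for H3K27ac (adjusted exact permutation p = 0.0391) and 20.6 to 33.6 for H3K4me1 (0.0195 to 0.0391). With 1 library left out, H3K27ac kept its call, at 29.3 to 32.3 points (0.0391). H3K4me1 lay at 24.4 to 30.1 points and lost its call in 8 of 9 cases (0.0781), the exception being the nEnd library of 42816 peaks (30.1 points, 0.0391). Members within 1 kb of a start site were 26.7% with all annotated genes. GATAA was at 41% of members in 100 bp, 65.9% in 500 bp and 57.9% of distal members. Distal strings, soft-masking, exactly 4 libraries, weighting by recurrence, H3K4me1 within clone B9 and DP lists of equal length were chosen after seeing the data. Unknown depth and list lengths from 1378 to 401853 peaks limit what a missing peak shows.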
